A study of Mus musculus with 6 samples.

Results

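Erythroid lineage genes were followed in sorted stem cells through the array probes named for 9 genes of red cell formation: Hba-a1, Hbb-b1, Alas2, Epor, Klf1, Gata1, Car1, Car2 and Slc4a1. The members were chosen by gene name, so 9 of the 31791 gene names on the array were taken, with 10 probes, 2 of them for Car1. The cells were LSK-SLAM, that is Lin-, Sca-1+, c-Kit+, CD150+ and CD48- marrow cells, a population enriched for HSC, and the question was how they differ when they lack p190-B, a GTPase-activating protein. In this study mid-gestation fetal liver cells of p190-B-/- embryos or of WT littermates, from p190-B+/- mice backcrossed to C57BL/6J, had been put with CD45.1+ competitor marrow into lethally irradiated congenic hosts. Months later, marrow of those hosts was passed on to secondary recipients (2T), and LSK-SLAM cells of these mice gave 3 arrays labelled 2T-WT and 3 labelled 2T-p190-B-/-. All 6 arrays thus share serial transplantation, irradiated CD45.1+ hosts and competitor cells. The loss of p190-B was present in every cell of the donor embryos and not confined to blood. The age of the recipient mice and whether an array holds cells of 1 mouse or of a pool are not given in the sources used here, so the p-values measure the spread between these arrays. In a bulk RNA sample, fewer cells of a type and less RNA per cell cannot be told apart.

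Red cells form from stem cells through progenitors that respond to erythropoietin, and then fill with haemoglobin and rebuild their membrane. GATA1 and KLF1 are the transcription factors that switch on much of this programme, and the erythropoietin receptor keeps the early precursors alive. Alpha-globin and beta-globin make up haemoglobin, ALAS2 starts haem synthesis in erythroid cells, carbonic anhydrases convert carbon dioxide, and band 3 (Slc4a1) is the anion exchanger of the red cell membrane. Ter119, an antigen of maturing erythroid cells, was among the stained lineage markers that define the Lin- cells, with CD11b, Gr1, B220, CD3 and CD5.

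The array reads each gene through 60-base oligonucleotides, and the sequences of 2 member probes are shown as examples. Both were measured above background on all 6 arrays, and read from the first base both hold an open reading frame. The probes of Epor and Slc4a1, also above background on all 6 arrays, are not shown. The Hba-a1 probe lies at chr11:32183955-32184014 (mm9, plus strand) and Car1 probe 1 at chr3:14770171-14770230 (mm9, minus strand). Exons were not assigned, since no mm9 annotation was used here.
Hba-a1: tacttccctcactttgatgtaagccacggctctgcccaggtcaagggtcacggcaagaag
Car1 probe 1: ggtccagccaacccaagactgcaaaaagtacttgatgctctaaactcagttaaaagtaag
The array's annotation of the Hba-a1 probe lists transcripts of both adult alpha-globin genes, Hba-a1 and Hba-a2, so this signal cannot be given to one of them. The Hbb-b1 probe carries an accession that RefSeq names Hbb-bt.

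GATA1 is itself a member, and the promoters of other members hold the word it is known to bind. RefSeq promoter sequences (GRCm38.p6, 250 bases before to 50 after the gene start) were at hand for 6 members: Hba-a1, Hbb-bt, Alas2, Epor, Klf1 and Gata1. The GATA word AGATAA was searched with its variants that have T as first letter, G as last letter or both, on both strands, and 4 of these 6 promoters held one, against 29.8% of all 32851 promoters. The KLF1 word CCNCNCCC was found in 4 of the 6, those of Hbb-bt, Alas2, Epor and Gata1, against 49.5% of all. Stretches of 60 bases around the GATA word, in capitals, are printed in the direction of the gene, so that 3 of them show it as its reverse complement.
Hba-a1, chr11:32283462-32283521 (plus): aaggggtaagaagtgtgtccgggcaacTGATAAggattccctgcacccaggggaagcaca
Alas2, chrX:150547304-150547363 (plus): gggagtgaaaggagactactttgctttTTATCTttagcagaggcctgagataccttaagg
Epor, chr9:21963598-21963657 (minus): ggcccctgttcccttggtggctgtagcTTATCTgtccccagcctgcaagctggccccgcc
Klf1, chr8:84901875-84901934 (plus): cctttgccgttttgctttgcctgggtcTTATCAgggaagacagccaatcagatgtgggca
A match describes the letters and does not show a binding site. The arrays carry no measurement at these promoters.

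Values are given on a log2 scale as the ratio of a probe's background-corrected signal to the 75th percentile of its array, so 0 stands for a probe at that percentile. Levels of different erythroid probes are not ranked, since probes bind their targets unequally, and sums over a list are read only between arrays. A probe is called well above background where the scanner software flags it so. Of the 10 erythroid probes, 4 were well above background on all 6 arrays (Hba-a1, Epor, Car1 probe 1 and Slc4a1) and 1 on none (Hbb-b1). Gata1 passed on 5 arrays, Alas2 and Car1 probe 2 on 4, and Klf1 and Car2 on 2. By array, 7, 8 and 4 of the 10 probes passed on 2T-WT replicates 1 to 3, and 8, 6 and 8 on 2T-p190-B-/- replicates 1 to 3. The array with the fewest, 2T-WT replicate 3, was also the dimmest, with a 75th percentile of 53.9 against 125 to 385 on the others, but it had 50.6% of all its probes above background against 48.4% to 73.1%. Probes well above background on at least 3 arrays were tested with limma, which kept 7 erythroid probes of 6 genes. Klf1, Car2 and Hbb-b1 were not tested.

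None of the 7 erythroid probes tested differed between genotypes at an adjusted p under 0.05, and none of the 25160 probes of the array did (0% of all probes). At an unadjusted p under 0.05 there were 0 erythroid probes, while 1654 of all probes passed (6.57%). The groups did not overlap and 2T-p190-B-/- was higher for 1 of the 7, Slc4a1, against 4.52% of the probes measured on every array. For 0 of the 7 they did not overlap with 2T-p190-B-/- lower, against 11.6%. The mean was higher in 2T-p190-B-/- for 4 of the 7 probes and lower for 3. The median difference of the 6 genes was 0.18 on the log2 scale and that of all probes tested was −0.33, a shift towards lower values in 2T-p190-B-/- that each difference below can be read against. That median was −0.11 with quantile normalization and −0.47 with normexp background correction, and under the latter the erythroid median was −0.56, the opposite sign. With 3 arrays a group, an exact permutation test cannot give a two-sided p below 0.1.

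**Figure D1:**
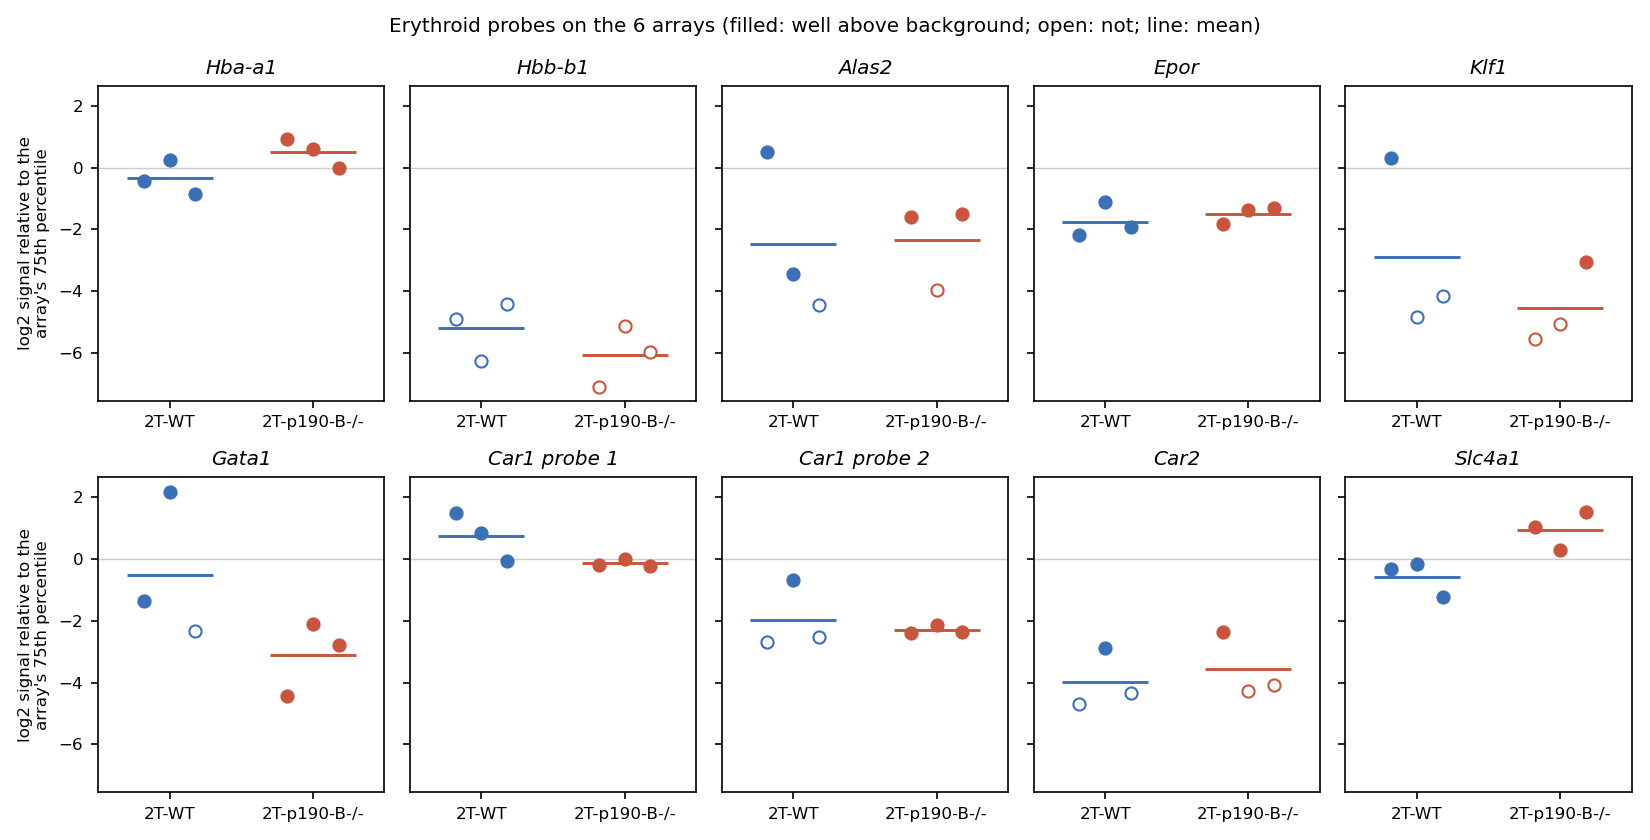
Each panel plots the log2 signal relative to the array's 75th percentile for 1 erythroid probe on 3 arrays of 2T-WT and 3 of 2T-p190-B-/-. Filled points are well above background, open points are not and lines are group means. Slc4a1 is the only panel in which all 6 points are filled and the groups do not overlap.

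Slc4a1, the band 3 anion exchanger, was the only member whose groups did not overlap. Its probe (chr11:102210256-102210315, mm9, minus strand) read −0.32, −0.17 and −1.25 in 2T-WT against 1.05, 0.29 and 1.53 in 2T-p190-B-/-. The highest 2T-WT array thus lay below the lowest 2T-p190-B-/- array, by less than the range within either group. Group means were −0.58 ± 0.58 and 0.95 ± 0.62 (SD, n = 3), a difference of 1.53 (SE 0.72), or 2.89-fold. In limma the adjusted p was 0.637 and the 95% interval ran from −0.12 to 3.18. The exact permutation p was 0.1, the smallest this design allows. On slide 2, which holds 2 arrays of each group, the difference was 1.37.

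Hba-a1, an adult alpha-globin, was well above background on all arrays. It read −0.43, 0.24 and −0.85 in 2T-WT against 0.92, 0.59 and −0.02 in 2T-p190-B-/-. The groups overlapped through 2T-WT replicate 2, which lay above 2T-p190-B-/- replicate 3. Means were −0.35 ± 0.55 and 0.50 ± 0.47 (SD, n = 3), with a difference of 0.85 (SE 0.69) whose 95% interval ran from −0.75 to 2.45 (limma adjusted p = 0.688). With normexp the difference was 0.48. The separate Hba-a2 probe, for the neighbouring alpha-globin gene, was also above background on all arrays and differed by 0.11 (limma adjusted p = 0.968). Hbb-b1, an adult beta-globin at chr7:110961105-110961164 (mm9, minus strand), was not well above background on any array. Its readings were −4.90, −6.26 and −4.42 in 2T-WT and −7.09, −5.14 and −5.98 in 2T-p190-B-/-, with none of them well above background, so no fold is given.

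The globin list, with the alpha-globin stabilising chaperone Ahsp, had 11 genes on the array, and 6 were tested. Of these 3 were higher and 3 lower in 2T-p190-B-/-, with a median difference of −0.11 against −0.36 over all 15647 genes tested. The globins Hbb-y, of the embryo, and Hbb-bh2 each had 1 probe above background on all 6 arrays and 1 above it on 1 array only. Of the others, the theta-like Hbq1b was above background on all 6 arrays, while the second adult beta-globin probe, Hbb-b2, was above it on 1. Groups did not overlap with 2T-p190-B-/- lower for 1894 of all 15647 genes, and with it higher for 638. In the globin list Ahsp, which binds free alpha-globin, was the 1 gene of the 6 tested whose groups did not overlap. It read −1.30, −0.69 and 0.30 in 2T-WT against −2.79, −1.61 and −2.49 in 2T-p190-B-/-, lower on every 2T-p190-B-/- array. The difference was −1.73 (SE 0.75, limma adjusted p = 0.637). Hba-a1 and its chaperone thus had differences of opposite sign, and neither passed the adjusted test.

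Alas2 makes the first step of haem synthesis in erythroid cells. Its probe (chrX:147004993-147005052, mm9, plus strand) read 0.50, −3.44 and −4.45 in 2T-WT against −1.60, −3.96 and −1.50 in 2T-p190-B-/-. The readings of −4.45 and −3.96 were not well above background. Within 2T-WT the arrays spanned the whole range of the probe, since replicate 1 was the highest of all 6 and replicate 3 the lowest. Means of −2.46 ± 2.62 and −2.35 ± 1.39 (SD, n = 3) differed by 0.11 (SE 1.36, limma adjusted p = 0.984). In the list of haem synthesis and iron uptake, 18 of 23 genes were tested, 11 were higher and 7 lower in 2T-p190-B-/-, and the median difference was 0.35. The transferrin receptor Tfrc, by which precursors take up iron, was above background on no array. Against 1894 of all 15647 genes that were lower without overlap, the list had 1 of 18, Abcb10, a mitochondrial transporter of erythroid cells. It was lower, by −1.77 (SE 0.86, limma adjusted p = 0.637), with 3 of its 6 readings above background, and by −0.997 without 2T-WT replicate 3.

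Epor, the erythropoietin receptor, gave steady readings. Its probe (chr9:21763422-21763481, mm9, minus strand) read −2.20, −1.12 and −1.94 in 2T-WT and −1.84, −1.36 and −1.33 in 2T-p190-B-/-, all well above background. The 6 readings spanned 1.08, the narrowest range among the erythroid probes, and the groups overlapped. The means of −1.75 ± 0.56 and −1.51 ± 0.29 (SD, n = 3) differed by 0.24 (SE 0.68, limma adjusted p = 0.917), with a 95% interval from −1.32 to 1.80. On slide 2 the difference was −0.07. Among erythropoietin signalling genes 10 of 15 were tested, 3 higher and 7 lower with a median difference of −0.16. Stat5a, a transcription factor activated by the receptor, differed by 1.42 (SE 0.91, limma adjusted p = 0.637), with 4 of 6 readings above background. Its groups did not overlap, against 638 of all 15647 genes that were higher without overlap. In 2T-WT it read −4.06, −3.43 and −3.21, with only −3.43 above background. In 2T-p190-B-/- it read −3.04, −0.35 and −3.05, all above background, so this group alone met the filter of 3 arrays. The difference was 0.52 without 2T-p190-B-/- replicate 2, which stood far above the rest, and −0.44 with normexp background correction.

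Gata1, the master regulator of erythroid and megakaryocytic genes, had the widest range among the erythroid probes, 6.60. Its probe (chrX:7536392-7536451, mm9, minus strand) read −1.37, 2.18 and −2.33 in 2T-WT against −4.42, −2.09 and −2.78 in 2T-p190-B-/-. One array, 2T-WT replicate 2, stood above all others, and 2T-WT replicate 3, at a reading not well above background, lay among the 2T-p190-B-/- arrays. Means were −0.51 ± 2.37 and −3.10 ± 1.20 (SD, n = 3). The difference of −2.59 (SE 1.25) had a 95% interval from −5.46 to 0.28 (limma adjusted p = 0.637). Without 2T-WT replicate 2 the difference was −1.25.

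Klf1, which activates adult beta-globin, was above background on 1 array of each group. Its probe (chr8:87428881-87428940, mm9, plus strand) read 0.30, −4.85 and −4.18 in 2T-WT and −5.55, −5.05 and −3.08 in 2T-p190-B-/-. The reading of 0.30 on 2T-WT replicate 1, the array with the highest Alas2, stood above the other 5. Among erythroid transcription factors 11 of 17 genes were tested, with 3 higher and 8 lower in 2T-p190-B-/- and a median difference of −0.75. The groups did not overlap for 2 genes, both lower, against 1894 of all 15647 genes that were lower without overlap. Of all genes, 61.9% had a lower mean in 2T-p190-B-/-. Gfi1b, a repressor needed for erythroid and megakaryocytic cells, read 0.23, −0.05 and 1.67 in 2T-WT and −1.08, −1.88 and −0.92 in 2T-p190-B-/-. It differed by −1.91 (SE 0.76, limma unadjusted p = 0.0361, adjusted p = 0.637). Ldb1, the bridging partner of the GATA1 complex, differed by −1.48 (SE 0.66, limma adjusted p = 0.637) with all 6 readings above background, and by −0.96 with normexp.

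Carbonic anhydrase 1 (Car1) had 2 probes. Probe 1 read 1.49, 0.84 and −0.08 in 2T-WT against −0.18, −0.01 and −0.23 in 2T-p190-B-/-. The 2T-p190-B-/- readings stayed close together, and 2T-WT replicate 3 fell among them. Means were 0.75 ± 0.79 and −0.14 ± 0.12 (SD, n = 3), a difference of −0.89 (SE 0.71, limma adjusted p = 0.683). It was −0.52 without 2T-WT replicate 1, −0.47 within slide 2 and −0.48 with normexp. Probe 2 (chr3:14767486-14767545, mm9, minus strand) read −2.68, −0.69 and −2.54 in 2T-WT and −2.39, −2.14 and −2.36 in 2T-p190-B-/-. The readings of −2.68 and −2.54 were not above background. The difference was −0.33 (SE 0.78, limma adjusted p = 0.900), in the same direction as probe 1 and next to the −0.33 of all probes. Car2 (chr3:14900206-14900265, mm9, plus strand), carbonic anhydrase 2, was above background on 1 array of each group, at −2.89 on 2T-WT replicate 2 and −2.36 on 2T-p190-B-/- replicate 1. The other Car2 readings were −4.69 and −4.35 in 2T-WT and −4.27 and −4.08 in 2T-p190-B-/-.

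**Figure D2:**
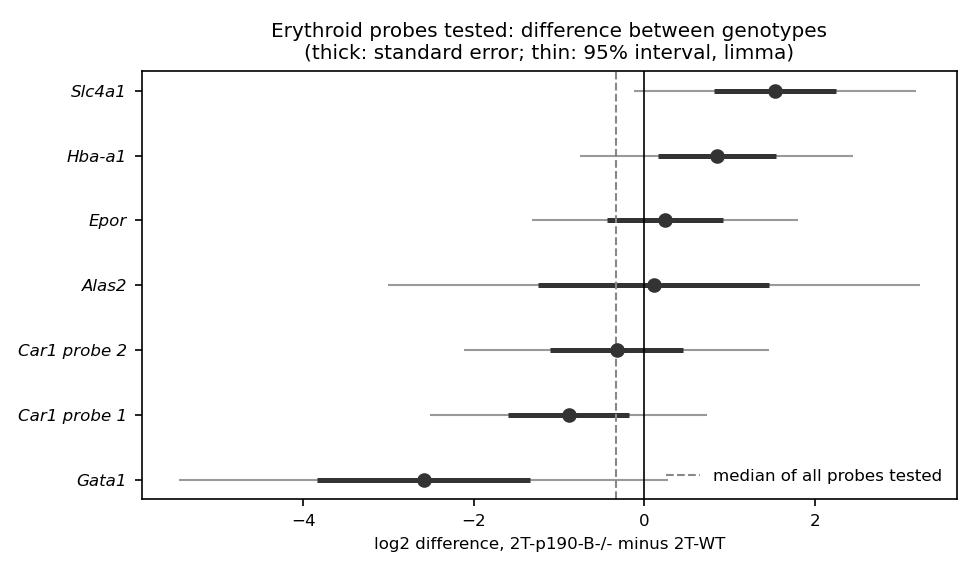
Points are the log2 difference, 2T-p190-B-/- minus 2T-WT, of the 7 erythroid probes tested, with the limma standard error (thick) and 95% interval (thin). The dashed line marks the median of all probes tested, −0.33. Every interval crosses 0.

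Band 3 is anchored to the red cell skeleton, and among membrane and skeleton genes 11 of 23 were tested. In 2T-p190-B-/-, 4 were higher and 7 lower, with a median difference of −0.59. Of all 15647 genes, 638 were higher and 1894 lower without overlap. Groups did not overlap for 2 higher genes, Slc4a1 and Sptb (beta-spectrin of the skeleton, 1.16, SE 0.72), and for 2 lower ones, Add1 (adducin 1, which caps skeletal actin, −1.44, SE 0.71) and Ermap (a membrane adhesion receptor, −1.25, SE 0.72). Each had a limma adjusted p of 0.637, and with normexp Add1 was −0.79, Sptb 0.52 and Ermap −0.27. Ermap was 0.027 with quantile normalization, and Sptb 0.72 without 2T-WT replicate 2. Sptb read −0.65, −1.99 and −0.73 in 2T-WT and −0.41, 0.17 and 0.36 in 2T-p190-B-/-. Of the 23 genes, 11 were above background on at least 3 arrays and 6 on none. The membrane gene Epb42 was among these 6, and Rhag was above background on 1 array. Both are named after their values were seen, as genes that mark maturing red cells. Other genes of the same list, Slc4a1, Sptb, Ank1 and Epb41 among them, were above background on all 6 arrays.

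In the list of red cell enzymes, not all of whose 25 genes encode enzymes, 19 were tested, with 6 higher and 13 lower. The median difference was −0.35, next to the −0.36 of all genes. Hk1, hexokinase 1, was higher without overlap by 1.06 (SE 0.76, limma adjusted p = 0.657), but by 0.47 without 2T-p190-B-/- replicate 1 and 0.027 with normexp. Ube2l6 was lower without overlap by −1.64 (SE 0.73, limma adjusted p = 0.637), but by −0.42 with quantile normalization and −0.71 with normexp. Over the 6 lists of red cell genes, 0 genes passed the adjusted test. Over all 15647 genes, 5968 had a higher mean in 2T-p190-B-/- and 9679 a lower one (61.9%). Non-overlapping groups were seen for 638 of the former and 1894 of the latter.

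**Figure D3:**
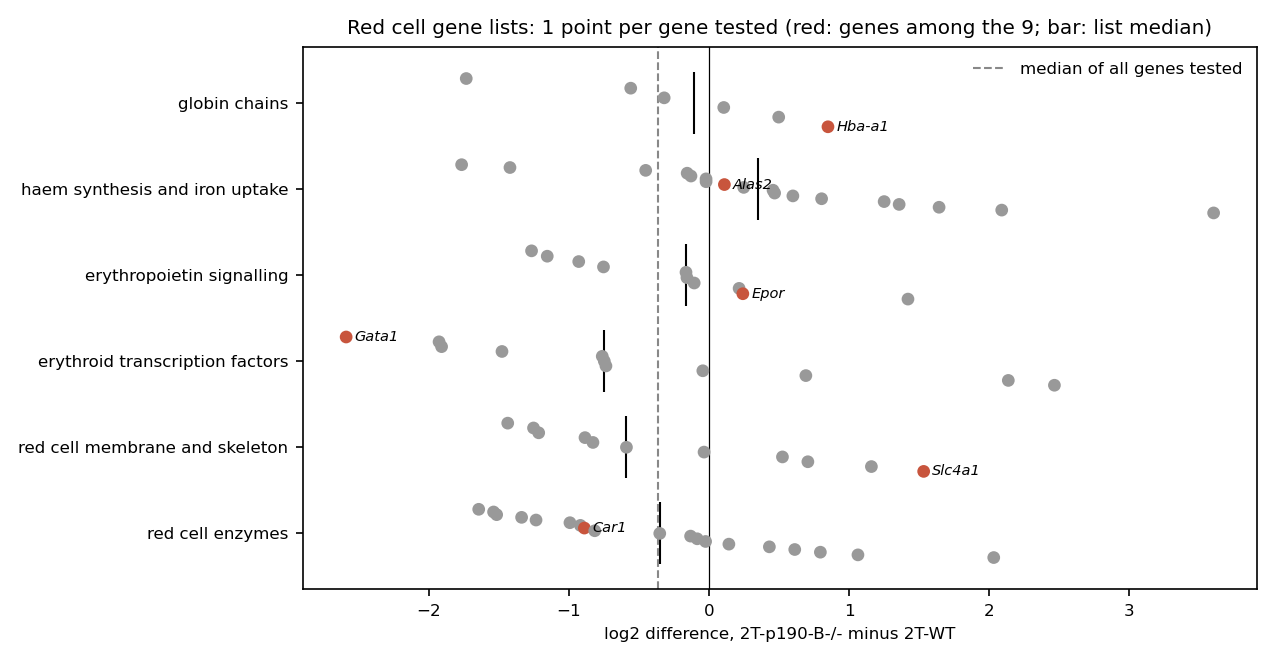
Each point is the log2 difference, 2T-p190-B-/- minus 2T-WT, of 1 gene tested in 1 of 6 lists of red cell genes. Red points are the erythroid members, black bars are list medians and the dashed line is the median of all genes, −0.36. The bars lie between −0.75 for transcription factors and 0.35 for haem synthesis and iron uptake.

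No array was highest for most erythroid probes. Counting each probe's highest reading, 2T-WT replicates 1 and 2 held 3 each, 2T-p190-B-/- replicate 1 held 2, and 2T-WT replicate 3 and 2T-p190-B-/- replicate 3 held 1 each. Alas2 and Klf1 were both highest on 2T-WT replicate 1, and Gata1, Epor, and Car1 probe 2 on 2T-WT replicate 2. Slc4a1 had the widest range, 2.77, among member probes above background on all arrays, so its pattern was compared over the 6 arrays with 13747 other probes. The most similar genes were Arhgap22 (Pearson r 0.991), Gm2069 (0.989), Gm833 (0.986), Gal3st2 (0.984) and Gm6795 (0.981). These are the highest of many correlations over 6 arrays that share their labels and slides, and are given without a test.

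Markers of the sort and of other blood cells were read on the same arrays. The sums below are divided by each array's 75th percentile. That divisor was 125, 227 and 53.9 on 2T-WT replicates 1 to 3. On 2T-p190-B-/- replicates 1 to 3 it was 385, 321 and 252, higher than on any 2T-WT array. The part of this divisor in the differences between sums was not tested. Sca-1 (Ly6a) was above background on 6 arrays and Kit on 5. CD150 (Slamf1), for which the cells were selected, was above it on none, while Cd48, selected against, was above it on 6. Among the brightest of the stem cell list were Fgd5 (difference −1.26) and Mecom (2.07). Neutrophil genes had 12 of 14 tested, 2 higher and 10 lower, with a median difference of −0.81 and the summed signal at 1460 to 7800 times the 75th percentile in 2T-WT against 872 to 1570 in 2T-p190-B-/-. Itgam (CD11b, −1.64), Csf3r (−1.20) and Lcn2 (−0.48) were the brightest, Itgam giving 56.2% to 73.1% of the sum. Of the 14 genes, 12 were above background on at least 3 arrays and 1, S100a9, on none. B lymphocyte genes had 10 of 11 tested, 3 higher and 7 lower with a median of −1.21 and sums of 129 to 1060 against 83.3 to 116. The upper limits of both lists in 2T-WT came from replicate 3, and the other 2T-WT arrays had neutrophil sums of 1460 and 2560 and B lymphocyte sums of 129 and 145. Cd22 (−0.99), Pax5 (−0.41) and Igll1 (−1.46) were the brightest. Cd22 gave 90.8% to 95.3% of the sum on every array but 2T-WT replicate 3, where it gave 31.2%. Without Cd22 that array summed to 727, against 5.97 to 7.64 on the others. T lymphocyte genes had 9 of 11 tested, 1 higher and 8 lower with a median of −0.51 and sums of 50.2 to 145 against 35.4 to 58.1, led by Cd4 (−1.20), Lck (−0.32) and Cd3e (−0.51). Cd4 gave 58.7% to 92.3% of each sum, and without it the sums were 11.2 to 22.6 and 10.6 to 17.7, with overlap. Megakaryocyte and platelet genes had 7 of 12 tested, 4 higher and 3 lower with a median of 0.05 and sums of 19 to 35 against 15.6 to 54.6, led by Treml1 (1.66), Gp1bb (−0.80) and Itga2b (0.05). Monocyte and macrophage genes had 10 of 11 tested, 4 higher and 6 lower with a median of −0.56 and sums of 65 to 167 against 38.5 to 56.9, led by Csf1r (−1.18), Fcgr1 (0.00) and Hmox1 (1.36). Each of these genes had a limma adjusted p of at least 0.637. The part of these other cells in the erythroid values was not tested. The globin list, the erythroid markers themselves, summed to 5.25 to 10.6 in 2T-WT and 5.72 to 13.6 in 2T-p190-B-/-, with the groups overlapping. Red cell enzymes summed to 2130 to 10900 against 1530 to 2580, also overlapping, with the highest sum on 2T-WT replicate 3. Hemgn, named here after its values were seen as the brightest of that list, is not an enzyme and gave 68.3% to 75.8% of each sum. It differed by −1.34 (limma adjusted p = 0.637). Without Hemgn the sums were 675 to 2800 in 2T-WT and 371 to 711 in 2T-p190-B-/-, with overlap. Membrane and skeleton genes summed to 342 to 1010 against 224 to 324, without overlap and lower in 2T-p190-B-/-, with 91.6% to 97.2% of each sum from Ermap. Without Ermap these sums were 19.4 to 28.4 and 11.7 to 27.1, with overlap. Ermap itself differed by −1.25, but by 0.027 with quantile normalization and −0.27 with normexp. The sums also overlapped for haem synthesis and iron uptake (22.7 to 62.9 against 43 to 89.1), erythropoietin signalling (11.3 to 37.1 against 7.6 to 24.3) and transcription factors (27 to 75.9 against 20 to 36.9).

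The deleted gene, Arhgap5, was above background on 2T-p190-B-/- replicate 2 only, so its probe does not check the genotype. The settings that changed a direction concerned Alas2, Epor and Car1 probe 2, as the plot of other settings shows.

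**Figure D4:**
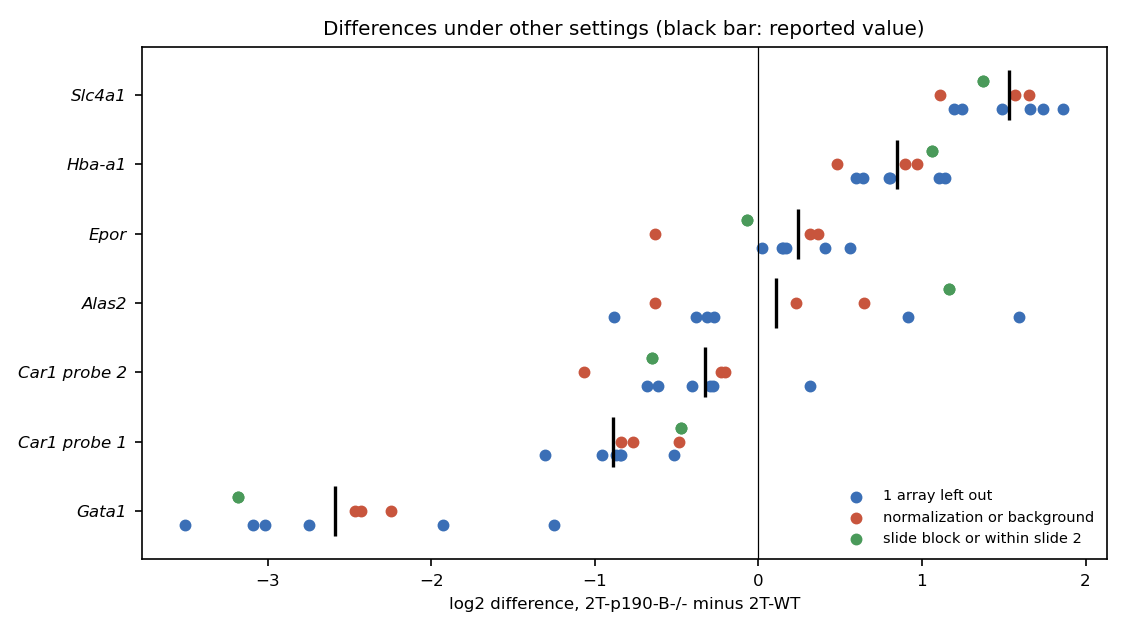
For each erythroid probe tested, the log2 difference, 2T-p190-B-/- minus 2T-WT, is plotted with 1 array left out (blue), with other normalization, background correction or scaling (red) and with slide as a block or within slide 2 (green). The reported value is a black bar. Slc4a1, Hba-a1, Gata1 and Car1 probe 1 stay on 1 side of 0, while Alas2, Epor and Car1 probe 2 cross it.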

How the data were processed

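RNA of LSK-SLAM cells was amplified, labelled with Cy3 and hybridised to 6 Agilent whole mouse arrays by a company, 1 sample per array. The authors deposited the scanner output (Agilent Feature Extraction 10.5.1.1), an intensity on a linear scale, and a table of the same processed intensity divided by 1 number per array. Coordinates are those of the probe annotation, build mm9. Names came from the RefSeq table of GRCm38.p6, which matched 26412 of 39429 probes by accession and 3854 by symbol, while 9163 kept the name in the files.

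Control and outlier spots were left out, and 0 spots were saturated. Each processed signal was scaled to the 75th percentile of its array, log2-transformed, and averaged where a probe had several spots. The filter kept probes flagged well above background on 3 or more of the 6 arrays. They were tested with limma 3.58.1 (lmFit and eBayes, R 4.3.3) without covariates, adjusted by Benjamini-Hochberg over 25160 probes. A gene is its brightest tested probe. The number of arrays limits the precision.

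The members and the lists were chosen with earlier results of these data known. Named genes are all members, in each red cell list up to 4 genes that did not overlap and differed by at least 1 on the log2 scale, the 5 probes most like Slc4a1, the 3 brightest genes of each list of other cells, and Arhgap5. A gene that this rule takes from the stem cell list is not reported here. The alternatives were quantile normalization, normexp (offset 50), the authors' scaled values, no filter or all 6 arrays as filter, a block for slide, a block for replicate number, slide 2 alone, a variance trend, the methods' t-test, the mean over a gene's probes, and each array left out. Replicates 2 and 3 of 2T-WT shared slide 2 with replicates 1 and 2 of 2T-p190-B-/-. Slides 1 and 3 hold 1 array each, so the block uses slide 2 alone.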

Additional observations from a re-analysis of the deposited data

How the results depend on the processing

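No erythroid probe and no probe of the array passed the adjusted test under any alternative run (0 in each). Hba-a1 (0.48 to 1.14), Gata1 (−3.50 to −1.25), Car1 probe 1 (−1.30 to −0.47) and Slc4a1 (1.11 to 1.86) kept their direction in every alternative that gave a value. With normexp, Alas2 was −0.63 and Epor −0.63. With the slide as a block, and within slide 2, Epor was −0.072. Leaving out 1 array each, Alas2 ran from −0.88 to 1.59, with −0.38 when 2T-WT replicate 2 was dropped, −0.88 when 2T-WT replicate 3 was dropped, and −0.27 and −0.32 when 2T-p190-B-/- replicate 1 or replicate 3 was dropped. Car1 probe 2 ran from −0.68 to 0.31, the latter without 2T-WT replicate 2. The median difference of the erythroid genes was −0.56 with normexp, ran from −0.37 (without 2T-WT replicate 3) to 0.48 when 1 array was left out, and was −0.08 without 2T-p190-B-/- replicate 3. Of the 10 other red cell genes named, Ermap was 0.027 with quantile normalization and Stat5a −0.44 with normexp, and the other 8 kept their direction where they gave a value, Hk1 at 0.027 with normexp. List medians ran from −0.87 to 0.17 for globin chains, −0.02 to 0.66 for haem synthesis and iron uptake, −0.74 to 0.07 for erythropoietin signalling, −1.23 to −0.34 for transcription factors, −0.94 to −0.07 for membrane and skeleton and −0.84 to 0.04 for enzymes. The cause of these changes was not tested. The median of all probes ran from −0.55 to −0.11.

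At an unadjusted p under 0.05, 1654 of all probes passed, against 3608 with normexp, 995 where only probes above background on all 6 arrays were tested and 1068 without 2T-p190-B-/- replicate 2. Of the erythroid probes 0 passed, against 2 with normexp and 1 each with quantile normalization, the filter on all 6 arrays, the replicate block, the methods' t-test and without 2T-WT replicate 3.

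Correlations of the deviations of same-numbered arrays were 0.00896, 0.0161 and 0.0863, against −0.0752 to 0.0673 for other pairs. All were weak, with replicate 3 above the highest other pair, and so few values cannot decide whether same-numbered arrays are pairs. The paper states that the cells were isolated at independent times, and the labels do not say which arrays belong together. With the replicate number as a block, 0 erythroid probes and 0 of all probes passed the adjusted test, 1872 of all probes had an unadjusted p under 0.05, and the erythroid median stayed at 0.18.

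Klf1 and Car2 had 2 readings above background each and Hbb-b1 had 0. With no filter on dim probes limma gave −1.65, 0.41 and −0.88 (adjusted p of 0.689, 0.862 and 0.692), values that rest mostly or wholly on readings not above background.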
